A study of Mus musculus with 6 samples.

Results

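F13a1 Fcrls macrophages are tumour macrophages that hold many transcripts of F13a1 and Fcrls, and 9666 of 40418 cells (23.9%) met the rule that defines them. The rule used raw UMIs, the counts of unique transcript molecules that droplet sequencing gives. A cell needed at least 1% of its UMIs in C1qa, C1qb and C1qc, no UMI of Cd3d, Cd3e or Cd3g, fewer than 3 of Mki67 and Top2a together, fewer than 5 of Cxcl9 and at least 10 of F13a1 and Fcrls together. These cells are called members below. They made up 57.0% of the 16967 C1q macrophages, which are the cells that met the rule without its limits on Cxcl9 and on F13a1 and Fcrls, and the remaining C1q macrophages are called other macrophages. Because the rule chose cells by F13a1, Fcrls, the C1q genes and Cxcl9, the levels of those genes, and the levels of members against other macrophages, are descriptions without a test; tests compare genotypes over libraries.

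The study removed Mtdh (metadherin) from the host, from the transplanted marrow or from both, and sampled the immune cells of mammary tumours. Live CD45-positive cells were sorted from tumours that female mice grew from injected Py8119 cells, a mouse mammary tumour line, and single-cell 3' libraries were made. Each of the 6 groups is 1 library. They are intact KO mice, irradiated KO hosts given KO marrow, irradiated WT hosts given KO marrow, irradiated KO hosts given WT marrow, irradiated WT hosts given WT marrow, and intact WT mice. Values for the members are listed below in that order. The first pair, intact KO and KO marrow in KO host, is called the both-KO libraries, and the remaining ones, from KO marrow in WT host to intact WT, are called the other 4 libraries. All transplanted mice received tumour cells 8 weeks after marrow transfer, and tumours grew for 4 weeks. Neither the number and age of the mice behind a library nor the deleted part of Mtdh is stated in the labels. The libraries held 85616443 to 142779550 UMIs, and members had a median of 20084, 13304, 14835, 19547, 15652 and 19677 UMIs per cell. The software that made the files differed between intact and transplanted libraries, so a difference between these cannot be told apart from it. Of the barcode sequences, 213 occurred in more than 1 library, 9 of them as members.

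F13a1 encodes the A subunit of coagulation factor XIII, the enzyme that crosslinks fibrin, and is made by many tissue macrophages and by the platelet lineage. Fcrls is a mouse scavenger receptor of the Fc receptor-like family, best known as a marker of microglia. Macrophages of many tissues that persist there for long share a set of genes with Folr2, Cbr2, Lyve1, Gas6, Mrc1 and the transcription factor Maf, while macrophages that arrived recently from blood monocytes commonly carry more MHC class II and Ccr2.

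The windows around the starts of F13a1, Fcrls and Cbr2, the gene with the largest excess in members, are shown because they are the genes that set these cells apart. F13a1 (ENSMUSG00000039109) lies at chr13:37049164-37049463 for the window shown, Fcrls (ENSMUSG00000015852) at chr3:87263475-87263774 and Cbr2 (ENSMUSG00000025150) at chr11:120731972-120732271, all on the minus strand of GRCm38.p6, in RefSeq windows of 250 bases before to 50 after the gene start. Capitals mark matches to GAGGAAGT, letters bound by PU.1 (Spi1), and to TGCTGA, a MAF half-site, searched on both strands.
F13a1: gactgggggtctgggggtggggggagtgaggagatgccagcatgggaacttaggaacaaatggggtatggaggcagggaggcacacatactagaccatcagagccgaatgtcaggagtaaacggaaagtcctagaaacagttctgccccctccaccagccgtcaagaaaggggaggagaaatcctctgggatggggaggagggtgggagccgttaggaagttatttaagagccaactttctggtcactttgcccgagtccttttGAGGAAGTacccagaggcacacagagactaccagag
Fcrls: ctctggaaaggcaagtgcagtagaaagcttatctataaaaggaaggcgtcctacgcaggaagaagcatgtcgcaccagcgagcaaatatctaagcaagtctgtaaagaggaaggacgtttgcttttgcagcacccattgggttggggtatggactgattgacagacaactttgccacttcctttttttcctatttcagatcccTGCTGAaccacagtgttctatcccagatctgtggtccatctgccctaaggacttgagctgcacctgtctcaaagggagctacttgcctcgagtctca
Cbr2: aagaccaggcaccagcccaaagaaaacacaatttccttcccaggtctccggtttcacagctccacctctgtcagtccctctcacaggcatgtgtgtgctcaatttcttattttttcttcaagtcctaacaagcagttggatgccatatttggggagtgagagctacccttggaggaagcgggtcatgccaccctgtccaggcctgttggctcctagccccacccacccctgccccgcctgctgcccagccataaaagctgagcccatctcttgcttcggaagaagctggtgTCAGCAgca
F13a1 has a second window, further upstream, without either motif. The PU.1 match of F13a1 begins 14 bases after the gene start, the MAF half-site of Fcrls at position -47 and that of Cbr2, on the reverse strand, 41 bases after the start. Of the 15 genes with the largest excess in members, 12 had windows, and 5 of their 15 windows (33.3%) held the MAF half-site, against 19.5% of all 32851 windows. The PU.1 letters were in 1 of these 15 windows (6.67%), against 3.20% of all windows. For the 15 genes with the largest deficit, 9 had windows, 10 in all, of which 2 (20%) held the MAF half-site and 0 the PU.1 letters. These are letter matches in short windows and say nothing of binding.

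The members carried the defining markers of macrophages in every library. Adgre1, the F4/80 antigen, stood at 293 to 389 CPM, which gives a gene's UMIs relative to all UMIs of the summed cells, Csf1r, the receptor for CSF1, at 645 to 859.6 CPM and Cd68 at 438 to 601 CPM. Mrc1, the mannose receptor and the marker of these cells that the rule did not use, stood at 713, 1109.9, 849, 779.7, 884 and 1096 CPM in members, against 328, 355, 370.5, 393, 344 and 562 CPM in other macrophages. It was higher in members in all 6 libraries. Some lists of other cells had genes that members carried. The 6 platelet markers summed to 825 to 2009.7 CPM in members, of which Pf4, a chemokine also made by tissue macrophages, had 820.3 to 2008 CPM and Ppbp at most 6.36 CPM. Gp9 and Gp1bb of that list were at 0 in members of the both-KO libraries and reached at most 0.0467 CPM elsewhere. The 6 microglia markers summed to 501 to 1161 CPM, with Sall1 at 0 in all members. The 7 monocyte markers summed to 192 to 268 CPM and the 5 neutrophil markers to 46.2 to 177 CPM. T and NK cell markers, 7 genes, summed to 32.2 CPM in members of KO marrow in KO host and to at most 3.45 CPM in the other 5 libraries. These include the 3 CD3 genes, which the rule sets to 0; Cd8a stood at 11.7 CPM and Nkg7, a granule protein of cytotoxic cells, at 14.6 CPM there. Dendritic cell markers, 6 genes, summed to 14.05 and 17.5 CPM in members of the both-KO libraries, against 4.72 to 11.6 CPM in the other 4. The part of such markers in the results below was not tested.

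Mtdh, the targeted gene, followed the marrow label in the members. It stood at 19.2 CPM (15.4 to 23.5) in intact KO, 11.7 CPM (7.495 to 17.4) in KO marrow in KO host and 20.6 CPM (18.98 to 22.3) in KO marrow in WT host, with exact Poisson 95% intervals. With WT marrow it stood at 108 CPM (106 to 111) in KO host, 113 CPM (109 to 116) in WT host and 111 CPM (108 to 114) in intact WT. The members of WT marrow in KO host thus had the level of WT mice, and those of KO marrow in WT host the level of KO mice. Other macrophages showed the same pattern, with 12.7 to 15.99 CPM with KO marrow and 100.2 to 109 CPM with WT marrow. In an edgeR model of summed UMIs with terms for transplantation, host and marrow, Mtdh fell with KO marrow (log2 fold change -2.58, SE 0.19, adjusted p = 0.0256). The call was lost without KO marrow in KO host, in the 4 transplanted libraries alone and with members taken at 5 or more UMIs, where the adjusted p reached 0.257. Over all alternatives the log2 fold change stayed between -2.93 and -2.31.

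**Figure D1:**
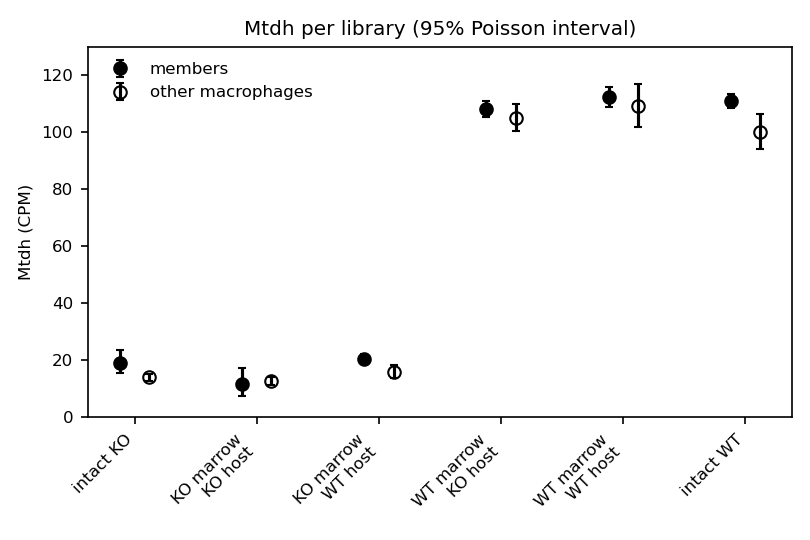
Mtdh level in CPM per library, with exact Poisson 95% intervals, for members (filled) and other macrophages (open). The 3 libraries with KO marrow reach at most 20.6 CPM in members, and the 3 with WT marrow lie at 108 CPM or above.

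Members were scarce in the both-KO libraries and made up most C1q macrophages in each of the other 4. Their share of C1q macrophages was 10.2% (8.998 to 11.6) in intact KO and 6.38% (5.41 to 7.46) in KO marrow in KO host, with exact binomial 95% intervals that cover counting error alone. It was 65.5% (63.7 to 67.3) in KO marrow in WT host, 70.5% (68.9 to 72.1) in WT marrow in KO host, 75.7% (74.05 to 77.3) in WT marrow in WT host and 83.8% (82.6 to 84.95) in intact WT. The libraries with KO in 1 compartment alone lay below both libraries without KO, and their intervals did not reach those of the both-KO libraries. For host, the pairs were the transplanted ones of like marrow and intact KO against intact WT. That intact pair differs in host and marrow alike and is counted under both factors. In 3 of 3 host pairs the share was lower in the KO host, and the log2 ratios averaged -2.17 (p = 0.2, two-sided exact permutation test). For marrow, the pairs were the transplanted ones of like host and the same intact pair. In 3 of 3 marrow pairs the share was lower with KO marrow, and the log2 ratios averaged -2.24 (p = 0.1, the smallest that an exact permutation of 3 against 3 libraries can give). Each factor's mean is carried by the pairs that contain a both-KO library. Leaving out 1 pair gave a host ratio of -3.20 (without the pair of WT marrow) to -1.57 (without the pair of KO marrow), and a marrow ratio of -3.25 (without the pair of WT hosts) to -1.62 (without the pair of KO hosts).

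Of all retained cells, members were 3.22% (2.82 to 3.66) in intact KO and 1.79% (1.52 to 2.11) in KO marrow in KO host. The other 4 libraries held 30.6% (29.4 to 31.8), 40.4% (39.1 to 41.7), 31.1% (30.02 to 32.3) and 44.2% (43.02 to 45.3). The mean log2 ratio was -2.50 for host (lower in 2 of 3 pairs, exact permutation p = 0.3) and -2.77 for marrow (lower in 3 of 3 pairs, exact permutation p = 0.1). Cells with at least 5 Cxcl9 UMIs, which the rule leaves out of the members, were common in the both-KO libraries, where they made up 57.5% and 59.5% of the other macrophages, against 4.01% to 24.8% in the other 4. With no Cxcl9 limit, a setting chosen after seeing the data, the members' share of C1q macrophages was 15.7% and 11.9% in the both-KO libraries and 67.2%, 74.6%, 76.4% and 86.6% in the other 4. With each cell thinned to 5000 UMIs and the rule applied again, it was 2.04% and 2.13% in the both-KO libraries and 31.6%, 32.9%, 42.3% and 56.6% in the other 4.

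**Figure D2:**
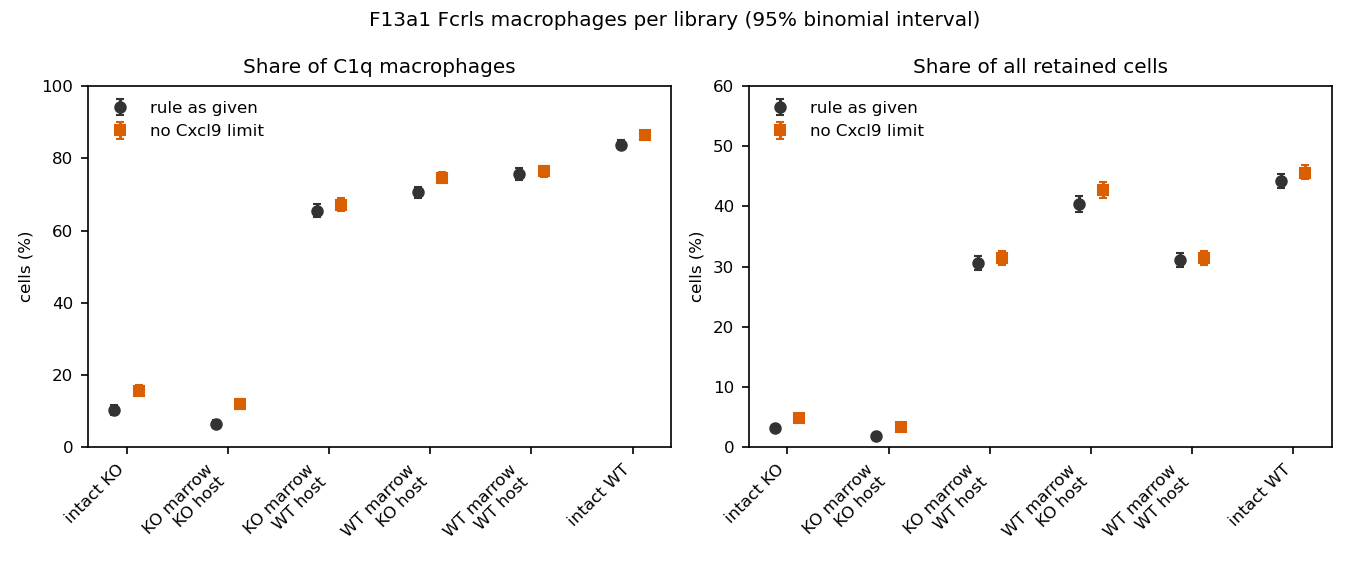
Members as a percentage of C1q macrophages (left) and of all retained cells (right) in each library, with exact binomial 95% intervals. The both-KO libraries lie at 6.38% and 10.2% of C1q macrophages and the other 4 between 65.5% and 83.8%; squares show the rule without its Cxcl9 limit.

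Against the other macrophages of the same library, members were rich in genes that long-lived tissue macrophages share. How long the members had been in the tissue was not tested, and in transplanted mice their Mtdh level followed the marrow given. Cbr2, a carbonyl reductase, stood at 139, 296, 458, 316, 431 and 407 CPM in members, against 25.8, 31.4, 110.1, 74.8, 61.8 and 112 CPM in other macrophages, a median log2 ratio of 2.01 (10 CPM added, as for all such ratios). Gas6, the ligand of the receptors Tyro3, Axl and Mertk in the uptake of dying cells, stood at 94.1, 184, 194, 195, 219 and 172 CPM in members, against 25.3, 25.6, 46.6, 61.8, 53.9 and 46.6 CPM in other macrophages (median 1.77). Folr2, folate receptor beta, had a median of 1.65 (range over libraries 1.29 to 2.14), and Maf one of 1.52 (1.36 to 1.73). No library reversed any of these ratios.

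Other genes in the leading 15 were the chemokines Ccl7 (median 1.45) and Pf4 (1.29), the endocytic receptor Stab1 (1.33), the semaphorin and VEGF co-receptor Nrp1 (1.39), and Fcgrt, the neonatal Fc receptor (1.13). Npl, a sialic acid lyase, had a median of 1.44, and the secreted ribonuclease Rnase4 one of 1.12. Cela1 (1.35), Ctla2a (1.26) and the ubiquitin ligase Wwp1 (1.12) completed them beside Mrc1 (1.14). Of 7510 genes with a mean of at least 10 CPM in either population, 24 (0.32%) were at least 2-fold higher in members by the median with 1 sign in all 6 libraries, and 34 (0.453%) were at least 2-fold lower. Of the resident-type list, 17 of 21 measured genes were higher in members in all 6 libraries (median log2 ratio 0.87), against 37% of all genes (2779 of 7510, median 0.09). The scavenger and efferocytosis list had 10 of 13 higher (0.32), and the list shared with microglia, Fcrls left out, 7 of 9 (0.57).

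Members held less of the antigen presentation and interferon genes than other macrophages. H2-Ab1, a chain of the class II molecule that shows peptides to CD4 T cells, stood at 4268, 4599.9, 1351, 1967, 863 and 1322 CPM in members, against 9021, 10401, 5043, 6763, 2842 and 4896 CPM in other macrophages (median -1.74). H2-Eb1 (-1.92), H2-Aa (-1.83) and the invariant chain Cd74 (-1.71) did likewise, and all 8 of 8 class II list genes were lower in all 6 libraries (median -1.50), against 9.25% of all genes. Of the class I list 8 of 11 were lower (-0.33), of the interferon list 11 of 18 (-0.49) and of the monocyte list 5 of 9 (-0.64). The Cxcl9 limit of the rule bears on these lists, since Cxcl9 is itself an interferon-induced chemokine.

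Lower genes outside those lists included Napsa, an aspartic protease, at 29.2, 33.1, 20.2, 19.3, 21.6 and 19.3 CPM in members, against 105, 103, 101, 83.2, 135 and 124 CPM in other macrophages (median -1.77). Dcstamp, a fusion protein of osteoclasts and dendritic cells, had a median of -1.51, the decoy receptor Il1r2 one of -1.48 and coagulation factor F10 one of -1.38. Ccl5 (-1.68), Ly6a (-1.59), Gbp2 (-1.56), AW112010 (-1.58), Klrb1b (-1.53), AA467197 (-1.41) and Ifitm1 (-1.37) completed the 15. Ccr2, the receptor that brings monocytes out of the marrow, stood at 159.8, 109.7, 171, 161, 167 and 204 CPM in members, against 165, 166, 326, 325, 362 and 445 CPM in other macrophages. The tumour macrophage genes Arg1 (median -0.24, of this sign in 4 of 6 libraries) and Spp1 (0.26, 5 of 6) kept no single sign. As a measure of RNA outside its cells, T cells held Cbr2 at 1.36% to 14.96% of the members' level in their library and H2-Ab1 at 11.8% to 51.4%. Other leading genes were above the members' level in T cells of every library. These were Ctla2a (435% to 1358%), Ccl5 (719% to 11458%), AW112010 (224% to 1911%), Ifitm1 (556% to 4727%) and Napsa (141% to 299%). Whether T cells made these transcripts or carried them as free RNA was not tested.

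**Figure D3:**
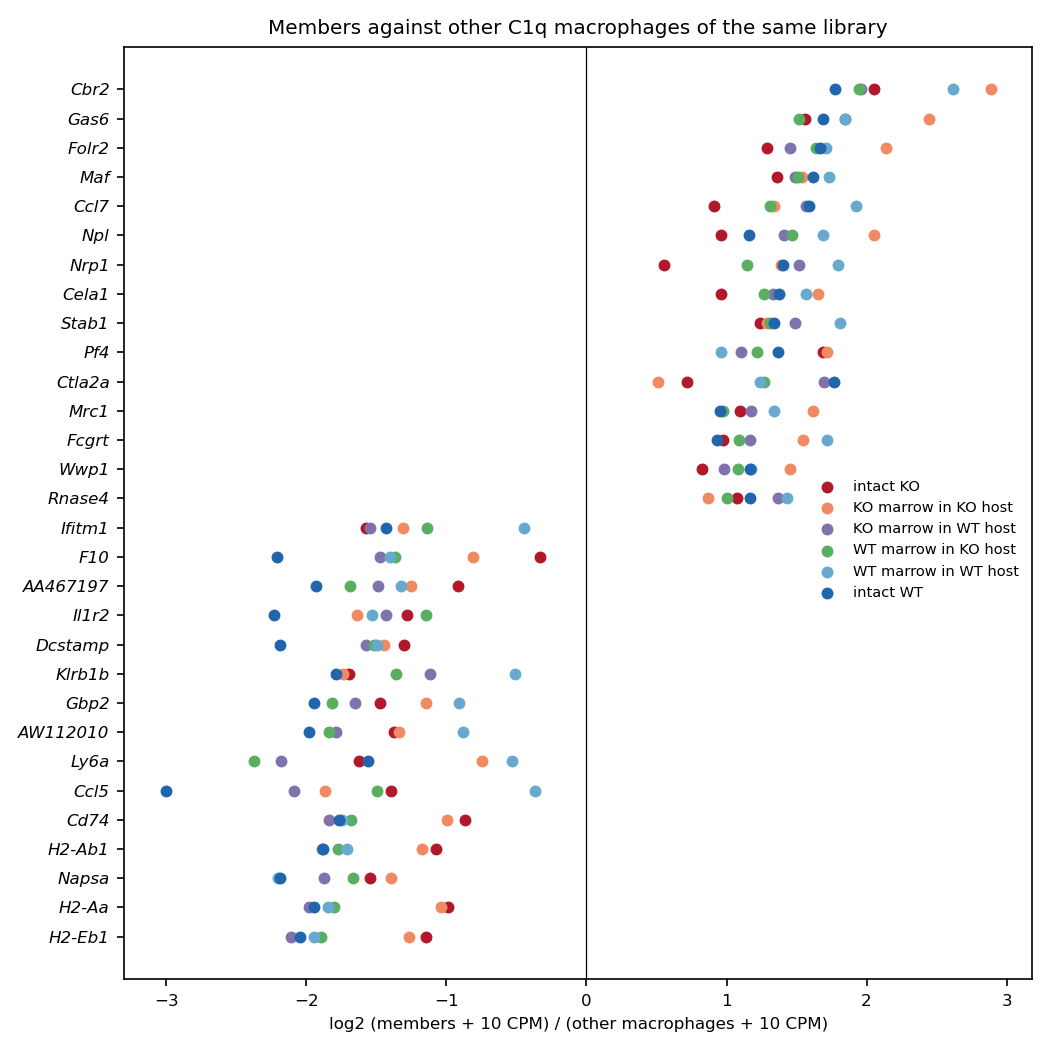
Log2 ratio of the level in members over that in other macrophages of the same library, for the 15 genes with the largest median in each direction, 1 point per library. Cbr2 has the highest median, 2.01, and H2-Eb1 the lowest, -1.92.

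The member boundary cuts a continuous range. There were 515 C1q macrophages with 8 or 9 F13a1 and Fcrls UMIs, just outside the rule, and 506 with 10 or 11, just inside it. Folr2 stood at 155 CPM in the cells just inside and at 131 CPM in those just outside, and H2-Ab1 at 3765 and 4165 CPM in the same cells. Of the members, 12.2% had 10 to 14 such UMIs and 44.0% at least 40. Among C1q macrophages with fewer than 5 Cxcl9 UMIs, Cbr2 stood at 338, 359.9, 682, 459, 661 and 520.2 CPM in cells with 40 or more F13a1 and Fcrls UMIs (only 5 cells in KO marrow in KO host), against 6.35, 15.4, 37.98, 35.8, 27.6 and 56.4 CPM in cells with 0. H2-Ab1 stood at 1811, 2636, 821, 1247, 484 and 693 CPM in cells with 40 or more, against 7954, 8998, 5519, 6018, 3777 and 6124 CPM in cells with 0. In each library the first set of cells was higher for Cbr2 and lower for H2-Ab1. The member median of the summed count was 19, 17, 27, 34, 32 and 49 over the libraries, so members of the both-KO libraries lay nearer to the boundary.

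**Figure D4:**
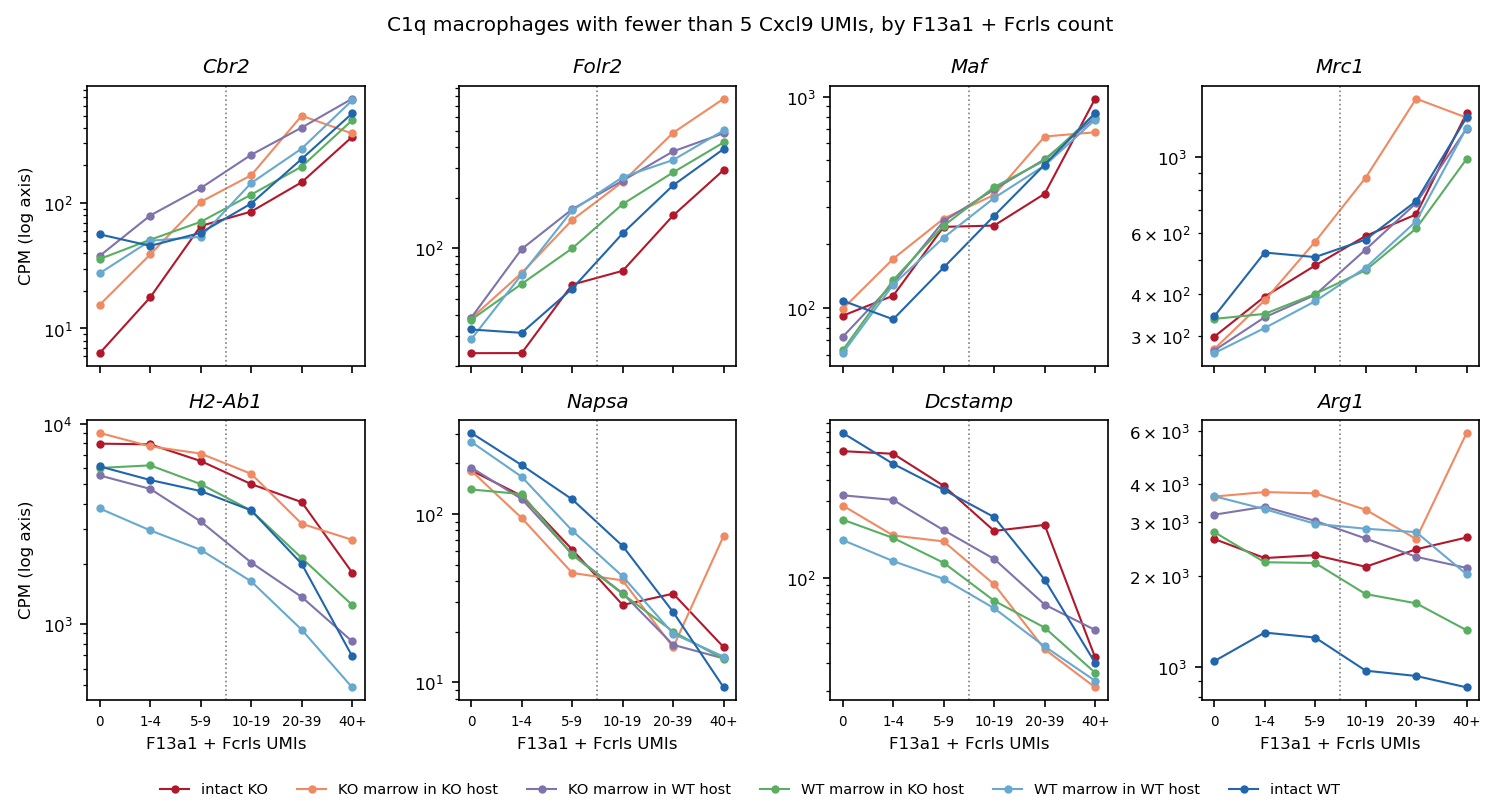
Level in CPM (log axis) of 8 genes in C1q macrophages with fewer than 5 Cxcl9 UMIs, grouped by their summed F13a1 and Fcrls UMIs, 1 line per library, with members right of the dotted line. Cbr2, Folr2, Maf and Mrc1 are higher in the highest class than at 0 in each library, and H2-Ab1, Napsa and Dcstamp lower; the highest class holds only 5 cells in KO marrow in KO host.

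Members differed among themselves in which of the rule's genes they carried. Of all members, 7270 (75.2%) had at least 5 UMIs of each, 628 (6.497%) had at least 5 of F13a1 and fewer of Fcrls, and 1768 (18.3%) the reverse. The F13a1-led cells made up 47.3% (38.9 to 55.7) of members in KO marrow in KO host and 18.1% (13.3 to 23.8) in intact KO, against 3.61% to 7.95% in the other 4 libraries. Fcrls-led cells were 15.8% and 38.1% of members in the same 2 libraries, against 10.9% to 26.5% in the other 4.

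The F13a1-led cells were rich in Arg1, the arginase of tumour macrophages, with library medians of 4375 against 1347 CPM in Fcrls-led cells. Hilpda, a lipid droplet protein, stood at 1050 against 418 CPM, Bnip3, a mitophagy receptor, at 373 against 134 CPM, and the hydroxylase Egln3 at 106 against 25.5 CPM in the same order. Ccl6 (1157 against 419 CPM), Slc7a2, an arginine transporter (202 against 56.2 CPM), and S100a6 (1357 against 560 CPM) were also higher in F13a1-led cells. Fcrls-led cells held more H2-Ab1, at a median of 4076 CPM, where F13a1-led cells had 1678 CPM. The lectin Mgl2 (109 CPM in Fcrls-led and 34.1 CPM in F13a1-led cells), Vcam1 (99.7 and 28.6 CPM) and Ccl12 (448 and 134 CPM) showed the same sign in all 6 libraries.

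Within members, host genotype and marrow genotype, fitted together with transplantation in 1 model, each called almost no gene. UMIs summed over the members of each library were fitted in that model, and of 13485 genes 0 (0%) passed an edgeR adjusted p of 0.05 for host and 1 (0.00742%), Mtdh, for marrow. At an unadjusted p under 0.05 there were 258 genes for host and 317 for marrow, and DESeq2 called 17 and 8. Leaving out 1 library moved the host count between 0 and 404, highest without WT marrow in KO host, and the marrow count between 0 and 544, highest without KO marrow in WT host. Genes with the most even differences over the 3 host pairs, none past the threshold, were class II genes, with H2-Eb1 at a log2 fold change of 1.45 (adjusted p = 0.499) and H2-Ab1 at 1.31 (adjusted p = 0.5). Ly6a, a stem cell antigen induced by interferon, was at 3.13 (adjusted p = 1). The genes lower in all 3 host pairs included Spp1, osteopontin (-0.71), Mgp, matrix Gla protein (-1.04), Cbr2 (-0.79), Ctla2a (-0.86) and Pam (-0.46), each with an adjusted p of 1.

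For marrow, Chil3, a chitinase-like protein of monocytes and alternatively activated macrophages, stood at 15.96, 5.85 and 7.17 CPM with KO marrow, against 91.9, 67.5 and 50.2 CPM with WT marrow. T cells held it at 56.8, 24.9 and 110 CPM with KO marrow, against 18.9, 320.5 and 799.9 CPM with WT marrow. This was 20.6% to 1592% of the members' level, and the part of free RNA was not tested. In members the groups did not overlap, and Chil3 did not pass (log2 fold change -2.999, SE 0.36, adjusted p = 1). It passed with DESeq2 and without any 1 of 5 libraries, the exception being KO marrow in KO host. Retnla, a secreted product of alternatively activated macrophages, stood at 46.6, 895 and 27.1 CPM with KO marrow, against 0.951, 0 and 0.156 CPM with WT marrow, and did not pass (adjusted p = 1). KO marrow in KO host was far above the rest. Igkc, an immunoglobulin chain of B and plasma cells, was at a log2 fold change of 2.89 (B cell markers summed to at most 12.3 CPM in any library), and H2-Aa at 0.82, while Rgs7bp was at -1.49, Spp1 at -0.47 and Atpsckmt at -0.68, none past the threshold (adjusted p of 1 each). T cells held Igkc at 209, 55.5 and 47.5 CPM with KO marrow, against 5.41, 10.5 and 25.1 CPM with WT marrow. This was 97.4% to 637% of the members' level, and the part of free RNA in the difference was not tested.

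Members of the both-KO libraries differed from those of the other 4 in many genes. A model with 1 term for these 2 libraries beside transplantation called 635 of 13485 genes (4.71%), 413 of them higher (3.06%) and 222 lower (1.65%). The contrast was chosen in earlier work on these data because these libraries stood apart, and its p-values leave that choice out of account. Leaving out 1 library gave 255 genes (without KO marrow in WT host) to 1267 (without KO marrow in KO host), 296 without WT marrow in KO host, 398 without intact WT and 409 without intact KO. The 4 transplanted libraries alone gave 414. The both-KO libraries contributed 226 and 146 members, against 1799 to 3147 in the other 4. The host, marrow and both-KO terms rest on the same 6 libraries, so their results are not independent of each other, and p-values measure the spread between single libraries.

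The class I pathway was higher throughout in both-KO members. All 11 of 11 class I genes tested rose, where 3.06% of all genes did. Their median log2 fold change was 1.39, against -0.04 over all genes. The difference between this effect and that in other macrophages, tested below, was called for 0 of 11 (median difference 0.006). H2-K1, a class I heavy chain, stood at 1602 and 2571 CPM in both-KO members, against 982, 999, 874 and 681 CPM in the other 4 (log2 fold change 1.35, SE 0.09, adjusted p = 0.0012). The groups did not overlap. B2m, the light chain, stood at 2687 and 3619 CPM in both-KO members, against 1744, 1989, 1743 and 1548 CPM in the other 4 (log2 fold change 0.90, SE 0.09, adjusted p = 0.00302). Tap1, which carries peptides to class I, rose by 1.97 (adjusted p = 0.00149) and Nlrc5, a regulator of class I genes, by 1.78 (adjusted p = 0.0225). Class I heavy chains are near-identical in sequence, so how reads shared between them were counted could move UMIs from one to another. H2-K1, H2-D1, H2-Q7 and B2m remained called in all 14 alternative settings.

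Interferon genes were higher in the same members. Of 18 tested, 9 rose, where 3.06% of all genes did, and 0 fell. All 18 fold changes were positive (median 1.59), and all 18 lay above the range of the other 4 libraries, as did 11.3% of all genes. The difference from the effect in other macrophages, tested below, was called for 1 of 18 (median difference 0.08). Irf1, a transcription factor induced by interferon gamma, stood at 135 and 194 CPM in both-KO members, against 45.9, 40.3, 41.3 and 25.2 CPM in the other 4 (log2 fold change 2.28, SE 0.10, adjusted p = 0.000258). The guanylate-binding protein Gbp2 stood at 108 and 186 CPM in both-KO members, against 21.4, 28.9, 21.4 and 22.2 CPM in the other 4 (log2 fold change 2.67, SE 0.19, adjusted p = 0.00231). In both genes the both-KO libraries were the 2 highest, and each remained called in all alternatives. Igtp (1.74), Gbp4 (3.47), Gbp5 (1.53) and Iigp1 (3.22) also rose, Gbp4 passing in 10, Gbp5 in 8 and Iigp1 in 5 of 14 alternatives. The Ifit genes did not pass, for example Ifit1 at 22.3 and 25.3 CPM in both-KO members, against 5.06, 12.997, 14.3 and 7.43 CPM in the other 4. Members of every library were held to fewer than 5 Cxcl9 UMIs. The part of Cxcl9 levels below that limit in these differences was not tested.

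Class II genes lay higher in both-KO members too, but fewer of them passed. Of 8 tested, 3 rose, where 3.06% of all genes did, all 8 were positive and the median was 1.55. Cd74 stood at 11105 and 10001 CPM in both-KO members, against 2886, 4200.3, 2116 and 3604 CPM in the other 4 (log2 fold change 1.67, SE 0.28, adjusted p = 0.045), and it passed in 6 of 14 alternatives (adjusted p up to 0.241). H2-Aa, at 4004 and 4214 CPM in both-KO members, against 1099.9, 1609.7, 688 and 1201 CPM in the other 4, missed the threshold (log2 fold change 1.82, SE 0.35, adjusted p = 0.0634). H2-DMa and H2-DMb1, subunits of the DM molecule that loads class II, rose by 0.70 (adjusted p = 0.0127) and 1.18 (adjusted p = 0.0191). T cells, which should hold little class II, had H2-Ab1 at 2195, 1082, 534, 231, 223 and 426 CPM in the 6 libraries, highest in the both-KO ones. The part of free RNA in these values was not tested.

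Genes that tumour macrophages share with microglia were lower in both-KO members. Of 9 tested beside Fcrls, 8 fell, where 1.65% of all genes did, and 0 rose (median -0.99). All 9 lay below the range of the other 4 libraries, as did 15.3% of all genes. The difference from the effect in other macrophages, tested below, was called lower for 4 of 9 (median difference -0.31), where 0.605% of all genes were. Gpr34, a lysophosphatidylserine receptor, stood at 45.3 and 55.1 CPM in both-KO members, against 161, 153, 141 and 116 CPM in the other 4 (log2 fold change -1.41, SE 0.11, adjusted p = 0.00149). The fractalkine receptor Cx3cr1 stood at 334 and 339 CPM in both-KO members, against 573, 582, 539.6 and 614 CPM in the other 4 (log2 fold change -0.80, SE 0.08, adjusted p = 0.00375). In both genes the both-KO libraries were the lowest, and the call held in every alternative. Olfml3 (-0.99), the purinergic receptors P2ry12 (-1.01) and P2ry13 (-1.22), Tmem119 (-0.68) and Sparc (-1.15) fell too. Of 14 alternatives, Tmem119 and Sparc lost their calls in 7 each, and Olfml3, P2ry12 and P2ry13 in 3 each. Fcrls itself, a gene of the rule, was at 596 and 478 CPM in both-KO members and 1175, 1258, 1302 and 1334 CPM in the other 4, which is given as a description.

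**Figure D5:**
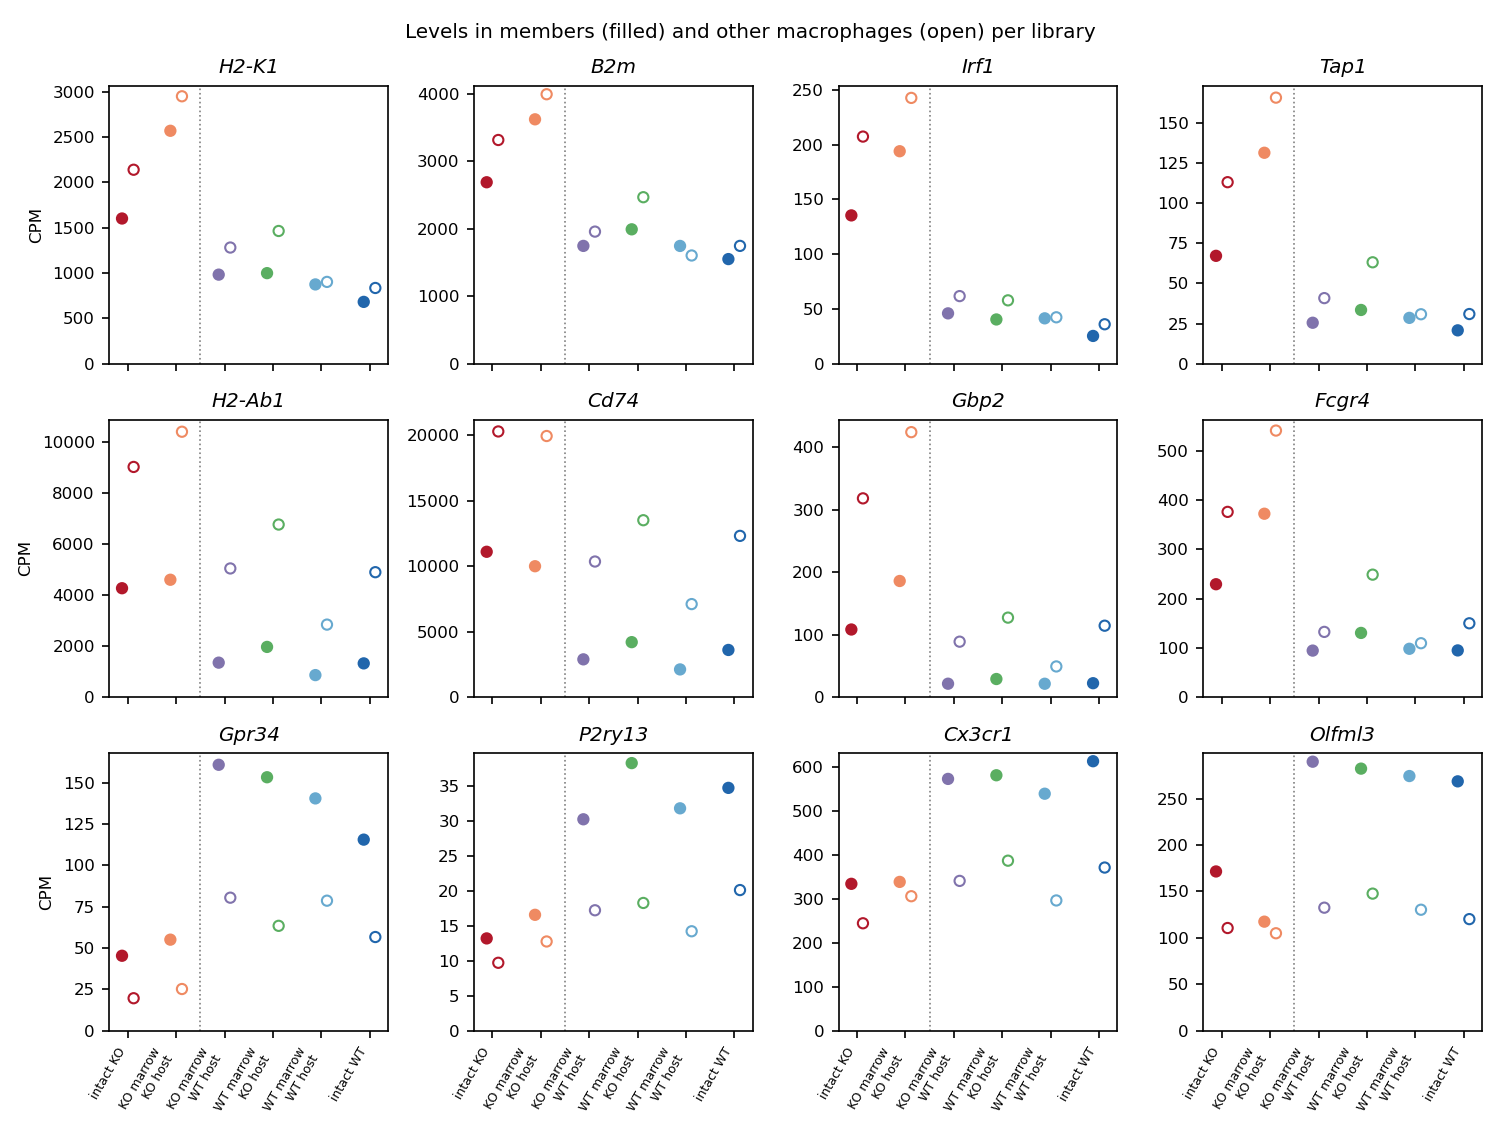
Level in CPM of 12 genes per library, in members (filled) and other macrophages (open), with the both-KO libraries left of the dotted line. Both-KO members are above the other 4 libraries for H2-K1, B2m, Irf1, Tap1, H2-Ab1, Cd74, Gbp2 and Fcgr4 and below them for Gpr34, P2ry13, Cx3cr1 and Olfml3.

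The resident-type genes that mark the members did not move as a group. Of 23 tested, 2 rose, where 3.06% of all genes did, and 1 fell, where 1.65% did (median 0.07). The difference from the effect in other macrophages, tested below, was called in the direction of members for 5 of 24 (median difference 1.07). Of all genes 1.62% were called so. With other macrophages also held to fewer than 5 Cxcl9 UMIs, 1 of 21 was called in that direction and 1 the other way. Maf stood at 370.1 and 468 CPM in both-KO members, against 569, 644, 588 and 692 CPM in the other 4 (log2 fold change -0.58, SE 0.12, adjusted p = 0.0369), and passed in 6 of 14 alternatives. The lectins Clec10a (2.62, adjusted p = 0.048) and Cd209g (4.63, adjusted p = 0.00938) rose, Clec10a in 7 of 14 alternatives and Cd209g in all but the one without KO marrow in KO host. Cbr2 stood at 139 and 296 CPM in both-KO members, against 458, 316, 431 and 407 CPM in the other 4, and did not pass (adjusted p = 0.15). Outside that list, Ctla2a fell by 1.26 on the log2 scale (adjusted p = 0.0225), as did Mgp by 1.86 (adjusted p = 0.0168) and Rnase4 by 0.64 (adjusted p = 0.00754). T cells held Mgp at 18.5 and 26.1 CPM in the both-KO libraries, against 113, 62.2, 34.2 and 13.96 CPM in the other 4. This was 78.3% to 396% of the members' level, and for Ctla2a it was 435% to 1358%. The part of free RNA in these falls was not tested.

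Single members of other lists passed as well. In the complement list 4 of 13 rose, against 3.06% of all genes: C3 (2.91, adjusted p = 0.018), the alternative pathway factors Cfb (2.999, adjusted p = 0.0365) and Cfp (0.87, adjusted p = 0.0048), and the inhibitor Cd55 (3.70, adjusted p = 0.042). Cfp passed in all 14 alternatives, C3 in 9, Cd55 in 8 and Cfb in 7. The low-affinity IgG receptor Fcgr4 stood at 229 and 372 CPM in both-KO members, against 94.5, 130.4, 98.1 and 94.8 CPM in the other 4 (log2 fold change 1.57, SE 0.16, adjusted p = 0.00589). Nos2, inducible nitric oxide synthase, stood at 21.7 and 31.2 CPM in both-KO members, against 5.03, 2.48, 5.43 and 1.32 CPM in the other 4 (log2 fold change 3.36, SE 0.48, adjusted p = 0.0265). Cd36, a lipid scavenger receptor, stood at 16.4 and 45.3 CPM in both-KO members, against 6.62, 4.81, 6.93 and 3.41 CPM in the other 4 (log2 fold change 2.63, SE 0.21, adjusted p = 0.00163), and lost its call with members taken at 20 or more UMIs or at 0.1% of UMIs. Apoe, the lipid carrier, fell (log2 fold change -0.58, SE 0.11, adjusted p = 0.0272), as did Ccr2 (log2 fold change -0.49, SE 0.10, adjusted p = 0.0365). Of the monocyte list, which holds Ccr2, 2 of 13 rose, where 3.06% of all genes did. Ccr2 alone of that list fell, where 1.65% of all genes did, and 9 fold changes were positive (median 0.88). The stress gene Jun fell (log2 fold change -1.12, SE 0.20, adjusted p = 0.0348) and Dnajb1 rose (0.50, adjusted p = 0.0352). Of 14 alternatives, Nos2 and Apoe passed in 9 each, and Ccr2, Jun and Dnajb1 in 7 each. In the chemokine and growth factor lists 0 of 16 and 0 of 15 passed.

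Among called genes whose libraries did not overlap, those with the largest fold changes were close to 0 in 1 of the groups. Gbp2b stood at 6.81 and 44.4 CPM in both-KO members and at most 0.446 CPM in the other 4 (log2 fold change 7.20, SE 0.59, adjusted p = 0.00302). Clec12b, Selenov, Ksr2, Clic5, Cc2d2b, Aldh1a2, Gzme, Ankdd1a and Serpina3f were the next higher genes of that kind, each with at most 15.3 CPM in members of any library, with log2 fold changes of 4.44 to 5.82. T cells held Gzme at 151 and 542 CPM in the both-KO libraries, against 6.88, 137, 1.9 and 3.35 CPM in the other 4. They held Serpina3f at 6.54 to 15.1 CPM, and both genes were above the members' level in every library. The part of RNA from T cells in these values was not tested. Among lower genes, Rasgrp3, an activator of Ras, stood at 2.98 and 0.487 CPM in both-KO members, against 12.4, 11.04, 13.8 and 23.5 CPM in the other 4 (log2 fold change -3.20, SE 0.30, adjusted p = 0.00248). Ecscr, an endothelial surface protein, stood at 1.92 and 0.975 CPM in both-KO members, against 14.7, 12.96, 11.2 and 11.3 CPM in the other 4 (log2 fold change -2.87, SE 0.33, adjusted p = 0.00511). Clgn, a chaperone, had 0 UMIs in both-KO members, against 1.66, 1.57, 1.73 and 1.68 CPM in the other 4. The haemoglobin genes Hba-a1, Hba-a2 and Hbb-bs, transcripts of red cells of which Hba-a1 and Hba-a2 are near-identical copies, were also among the 10, with at most 8.48 CPM in any library. Ogn, F630028O10Rik, Hist1h2ac and Tjp1 completed the lower set, with log2 fold changes of -3.95 to -2.33.

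Because both-KO members lay nearer to the boundary of the rule, the levels were set side by side at matched F13a1 and Fcrls counts, a step chosen after the fits were seen. The match is on the sum of these genes and not on the share of each, and F13a1-led cells were more common in both-KO members. The part of that mix in the values was not tested. In members with 20 to 39 such UMIs, H2-Ab1 stood at 4065 and 3171 CPM in the both-KO libraries, against 1368, 2142, 939 and 2002 CPM in the other 4. Irf1 stood at 124 and 234 CPM in the both-KO libraries, against 49.3, 42.4, 42.2 and 24.8 CPM in the other 4, and Gpr34 at 45.4 and 57.9 CPM against 159, 142, 129 and 94.5 CPM. H2-K1, Gbp2, Fcgr4, Olfml3, Cx3cr1 and Apoe also kept both-KO libraries outside the range of the other 4 in this class and in that of 10 to 19 UMIs. Maf did not: it stood at 346 and 647 CPM in the both-KO libraries, against 505, 498, 472 and 476 CPM in the other 4. Cbr2 overlapped as well, and Ccr2 did so at 10 to 19 UMIs.

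Some genotype differences had another size in members than in other macrophages. The difference of the effects was tested in 1 model over both populations with library as a block. For host genotype it called 48 of 13724 genes (0.35%), 17 in the direction of members (0.124%) and 31 the other way (0.226%). Slpi, a leukocyte protease inhibitor, stood at 28.1, 19.01 and 8.79 CPM in members with KO host, against 8.56, 28.5 and 3.88 CPM with WT host. In other macrophages it stood at 20.5, 26.8 and 8.095 CPM with KO host, against 23.5, 81.7 and 7.89 CPM with WT host, a difference of effects of 1.44 (SE 0.15, adjusted p = 6.75e-06). T cells held Slpi at 26.6, 23.2 and 0.677 CPM with KO host, against 20.7, 44.2 and 6.14 CPM with WT host. This was 7.70% to 241% of the members' level, and the part of free RNA in the difference was not tested. Vcan, versican (1.32, adjusted p = 0.00382), Thbs1, thrombospondin 1 (0.53, adjusted p = 0.013), and Napsa (0.55, adjusted p = 0.00755) also had positive differences. Negative ones included the cytokine Tnf (-0.81, adjusted p = 0.000117), the costimulatory receptor Cd40 (-0.75, adjusted p = 0.00181), Nrp1 (-0.56, adjusted p = 0.0302), Ccl7 (-0.49, adjusted p = 0.0048) and Ecscr (-1.77, adjusted p = 0.0168). Slpi held its call in all 13 alternatives that gave it an adjusted p, DESeq2 giving none, and each of the other 8 lost it in at least 1. The balance of directions did not hold: without WT marrow in KO host it was 161 in the direction of members and 46 the other way. It was 40 and 22 with members taken at 5 or more UMIs, 109 and 50 without WT marrow in WT host, and 18 and 105 without KO marrow in WT host. Other macrophages with 5 or more Cxcl9 UMIs were more common with KO host in all 3 pairs, at 57.5% against 24.5%, 59.5% against 12.5% and 24.8% against 4.01%. With the other macrophages also held to fewer than 5, a setting chosen after seeing the data, 3 of 12340 genes were called for host: Slpi, the neutrophil gene S100a9 and the rule gene F13a1.

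For the both-KO term the same model called 306 of 13724 genes (2.23%), 223 in the direction of members (1.62%) and 83 the other way (0.605%), with 175 to 407 when 1 library was left out. Class II genes differed more in members: 6 of 8 were called in that direction. H2-Aa stood at 4004 and 4214 CPM in both-KO members, against 1099.9, 1609.7, 688 and 1201 CPM in the other 4. In other macrophages it stood at 7946 and 8668 CPM in the both-KO libraries, against 4384, 5656, 2506 and 4659.5 CPM in the other 4, a difference of effects of 0.88 (SE 0.07, adjusted p = 8.94e-08). H2-Ab1 (0.68), H2-Eb1 (0.78), Cd74 (0.80), H2-DMb1 (0.46) and the class II regulator Ciita (1.03) had positive differences too. With members taken at 20 or more UMIs, H2-Aa was at 0.52 with an adjusted p of 0.337, and H2-Ab1, H2-Eb1, Cd74 and H2-DMb1 were not called either. Of the class I list 0 of 11 and of the interferon list 1 of 18 were called.

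Coagulation factor F7 stood at 17.7 and 27.8 CPM in both-KO members, against 19.2, 18.8, 21.2 and 12.9 CPM in the other 4, while other macrophages had 23.1 and 21.3 CPM in the both-KO libraries, against 65.03, 56.4, 80.1 and 53.9 CPM in the other 4. Its difference of effects was 1.88 (SE 0.17, adjusted p = 5.24e-07). That of Arg1 was 0.60 (adjusted p = 5.27e-06), that of S100a4 0.75 (adjusted p = 7.48e-06), that of Pf4 0.49 (adjusted p = 0.000844) and that of Npl 1.26 (adjusted p = 0.0288). Olfml3 (-0.73, adjusted p = 0.000119) and Ecscr (-3.10, adjusted p = 0.000195) had negative differences. F7 and Arg1 held their calls in all 14 alternatives. The other macrophages of the both-KO libraries were mostly cells with 5 or more Cxcl9 UMIs and those of the other 4 mostly were not. With the same limit on the other macrophages, 257 of 12340 genes were called for the both-KO term, 207 in the direction of members and 50 the other way. Class II genes were then called in 7 of 8, with H2-Aa at 1.10; F7 was at 1.48 and called, and Pf4 and Npl were not called.

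The both-KO libraries were not alike in the genes of perivascular and connective tissue macrophages. Lyve1, a hyaluronan receptor, stood at 116 CPM in members of KO marrow in KO host and at 3.62 CPM in those of intact KO, against 19.4, 6.87, 36.1 and 6.17 CPM in the other 4. After thinning each cell to 5000 UMIs, which left out 1 to 11 shallower members per library, it was found in 12.5% of members of KO marrow in KO host, in 0.889% of those of intact KO, and in 1.42% to 5.51% in the other 4. Without thinning the first of these was 16.4%. T cells, thinned likewise, carried it in 0.258% of cells of KO marrow in KO host. The lectin Cd209f stood at 86.3 CPM, the endothelin receptor Ednrb at 49.7 CPM and the chemokine Ccl24 at 75.1 CPM in members of KO marrow in KO host. In intact KO they stood at 1.49, 1.28 and 7.88 CPM, and no other library exceeded 17.5 CPM for any of the 3. Cells with a UMI of at least 3 of Lyve1, Ednrb, Retnla, Cd209f and Cd163 were 13 of 146 members (8.90%, 4.83 to 14.7) in KO marrow in KO host and 1 of 226 (0.442%, 0.0112 to 2.44) in intact KO, against 0.222% to 0.8399% in the other 4. This set was chosen after its values were seen, and 1 library decides it.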

How the data were processed

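UMIs were counted in live CD45-positive tumour cells from 6 single-cell 3' libraries. The files deposited by the authors give unnormalized UMI counts for each gene in each barcode, made with Cell Ranger 7.0.1 (intact mice) or 6.1.1 (transplanted mice), per the file headers, on mm10, per the submitters' processing notes. Cell calling was done before deposit, and neither the labels nor the headers state whether intronic reads count. The libraries held 85616443 to 142779550 UMIs in 41267 barcodes.

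Barcodes with at least 200 genes and at most 15% mitochondrial UMIs were kept (40418), and 30406 genes shared by all files were used. The cells, the members and the gene lists were chosen with earlier results of these data known. Levels are CPM of UMIs summed over cells. Summed counts were tested with edgeR 4.0.16 (limma 3.58.1, R 4.3.3) by its quasi-likelihood test with TMM scaling, filterByExpr and Benjamini-Hochberg adjusted p at 0.05, as were all fits here; the terms were transplantation, host and marrow (2 residual degrees of freedom), or transplantation and both KO (3). Differences between populations used a library block. DESeq2 1.42.0 was an alternative, and all fits were tested on simulated data. Shares were compared by exact permutation over libraries, and shares of cells have exact Clopper-Pearson intervals at 95%, which cover counting error only. Python 3.11.15, scanpy 1.11.5, scipy 1.17.1 and numpy 2.4.6 were used. Automatic Scrublet doublet calls numbered 0 to 4 per library and did not work as a filter, so no cell was removed; removing the top 6% of scores per library was an alternative.

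Genes named are the rule genes, Mrc1 and Mtdh, the 15 per direction with the largest median ratio of members over other macrophages and 1 sign in all 6 libraries (at least 100 UMIs), up to 10 per direction past the threshold in each genotype fit whose libraries did not overlap, filled to 5 with genes of even differences, and up to 8 from each list whose mean reached 10 CPM. Other genes named were chosen after their values were seen, among them the genes of the cells led by F13a1 or Fcrls and of the Lyve1 set. The alternatives were DESeq2, no TMM, no filter on low counts, members at 5 or 20 UMIs or at 0.1% of UMIs, C1q at 0.5%, at least 500 UMIs with doublet scores, thinning to 5000 UMIs, transplanted libraries alone, 50 CPM added, other macrophages held to fewer than 5 Cxcl9 UMIs, and leaving out each library. Per-cell clustering was not used. Single results for some genes are not reported here.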

Additional observations from a re-analysis of the deposited data

Results flagged for a closer look

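The host genotype effect differed in size between members and other macrophages for 48 genes, and the both-KO effect for 306, each by a test of the difference itself. For host, the log2 difference of effects was 1.44 for Slpi, 1.32 for Vcan, 0.55 for Napsa and 0.53 for Thbs1, 4 of the 17 genes with a positive difference. It was -1.77 for Ecscr, -0.81 for Tnf, -0.75 for Cd40, -0.56 for Nrp1 and -0.49 for Ccl7. These are 5 of the 31 with a negative difference. With other macrophages held to fewer than 5 Cxcl9 UMIs, Slpi alone of these 9 was called.

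For the both-KO term, the differences of class II genes were 0.88 for H2-Aa, 0.68 for H2-Ab1, 0.78 for H2-Eb1, 0.80 for Cd74, 0.46 for H2-DMb1 and 1.03 for Ciita. They were 1.88 for F7, 1.26 for Npl, 0.75 for S100a4, 0.60 for Arg1 and 0.49 for Pf4. Genes with a lower effect in members were Ecscr at -3.10 and Olfml3 at -0.73. Other macrophages with 5 or more Cxcl9 UMIs made up 57.5% and 59.5% of that population in the both-KO libraries, against 4.01% to 24.8% in the other 4. With that population held to fewer than 5, all of these both-KO differences but those of Npl and Pf4 were called.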

How the results depend on the processing

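Each group is 1 library, so replicate numbers pair no samples across groups. Share ratios were averaged over pairs of libraries, while their exact permutation test exchanged labels over all libraries and left the pairing out. The transplanted pairs above are matched in the genotype of the other compartment, while the intact pair differs in host and marrow alike. No fold change of a named gene and no share ratio changed sign in any alternative run, but the balance of called directions did turn. For the difference of both-KO effects it was 223 in the direction of members and 83 the other way, and 311 and 344 with no filter on low counts; for that of host effects the turns are given above. DESeq2 called 17 genes for host, 8 for marrow, 1228 for both KO and 10 for the difference of host effects between populations. With no filter on low counts the counts were 1 for host, 2 for marrow, 976 for both KO, 175 for the difference of host effects and 655 for that of both-KO effects. Members taken at 20 or more F13a1 and Fcrls UMIs gave 4 genes for host, 360 for both KO and 10 for the difference of host effects, and members at 5 or more gave 0 for marrow and 991 for both KO. Members at 0.1% of UMIs gave 416 for both KO and 27 for the difference of host effects. The transplanted libraries alone gave 2 for marrow, neither of them Mtdh, and 414 for both KO. Leaving out 1 library gave 0 to 404 genes for host, 0 to 544 for marrow, 255 to 1267 for both KO, 63 to 207 for the difference of host effects and 175 to 407 for that of both-KO effects. With other macrophages held to fewer than 5 Cxcl9 UMIs, a setting chosen after seeing the data, the difference of host effects called 3 genes and that of both-KO effects 257. The causes of these moves were not tested.

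The log2 ratio of the members' share of C1q macrophages, both-KO minus the other 4 libraries, was -3.19. It was -3.99 at 20 UMIs, -2.55 at 5, -3.59 at 0.1% of UMIs, -4.25 after thinning, -2.14 with the Cxcl9 limit on all C1q macrophages, -2.47 with none, and -3.53 to -2.85 without 1 library. Of all retained cells the ratio was -3.91, and it was -4.71 at 20 UMIs, -3.27 at 5, -4.31 at 0.1% of UMIs, -4.71 after thinning, -3.20 with no Cxcl9 limit and -4.33 to -3.49 without 1 library. The settings on Cxcl9 were chosen after seeing the data. With 50 CPM added, 9 genes were 2-fold higher and 12 lower in members, and against other macrophages without F13a1 or Fcrls UMIs 85 were higher and 54 lower. Of the genes named from the both-KO fit and its lists, 18 of 60 held their call in every alternative, and for the difference of both-KO effects 2 of 13. DESeq2 gave no adjusted p for Slpi, Vcan, Cd40, Napsa and Ecscr in the difference of host effects. With 226 members in intact KO and 146 where both host and marrow came from KO mice, genes near 1 CPM rest on few UMIs there.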

Other observations

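Further gene groups were set beside each other in members and other macrophages as descriptions. Of 16 chemokine genes, 7 were higher and 2 lower in members in all 6 libraries. Ccl2, which draws monocytes, ranged over the libraries from 276 to 867 CPM in members, against 129.99 to 398 CPM in other macrophages (median log2 ratio 1.05), and Ccl12 from 252 to 556 CPM in members, against 122 to 279 CPM in other macrophages (1.02). Cxcl10, an interferon-induced chemokine, ranged from 51.8 to 224 CPM in members, against 128 to 730.3 CPM in other macrophages (-1.28). Of 16 lysosome genes, 9 were higher and 2 lower, with the proteases Ctsd at a median of 0.74, Ctsb at 0.62 and Lgmn at 0.57. Of 14 growth factor genes, 6 were higher and 3 lower, among them Igf1, insulin-like growth factor 1 (0.82), and Pdgfc (0.67) on the higher side and the angiogenic Vegfa (-0.37) on the lower.

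The complement list had 5 of 10 higher and 3 lower, with C4b at a median of 0.82 and C3 at -1.10. The lipid list had 5 of 12 higher and 1 lower, with the cholesterol exporter Abca1 at 0.53 and lipoprotein lipase, Lpl, at -0.54. Among 11 coagulation genes other than F13a1, 2 were higher and 2 lower, and F10 and F7, which act upstream of fibrin, had medians of -1.38 and -1.28. F10 was lower in members in all 6 libraries, and F7 in 5, with 27.8 CPM in members and 21.3 CPM in other macrophages of KO marrow in KO host. The tumour macrophage list had 6 of 15 higher and 5 lower, the Fc receptor list 2 and 1 of 6, and the dissociation stress list 3 and 0 of 13. Of all genes, 37% were higher and 9.25% lower in all 6 libraries.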
